A study of Gallus gallus with 13 samples.

Results

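Successive steps through S phase were followed in DT40 cells of genotype Wt, as Repli-seq profiles of 4 sorted fractions named S1 to S4. DT40 is a chicken line that was derived from a lymphoma of the bursa, the organ in which birds form B cells. The numbers of the fractions were taken as their order in S phase. The 4 profiles compared here were chosen by their labels, genotype Wt and fraction S1, S2, S3 or S4, and are 4 of the 13 samples of the series. A second line, a single clone with genotype 2x (βA-globin+ β-actin), carries an inserted module of regulatory elements on both alleles of chromosome 1. It has 4 fraction profiles of its own, and these serve below as a second set of libraries. Both lines were growing cultures that had been given the nucleotide analog BrdU for 1 h, after which the cells were sorted by flow cytometry and BrdU-labelled DNA was recovered with an antibody and amplified. The remaining 5 samples, which are the asynchronous Wt library and 4 Hi-C libraries, were not used here. Each fraction in each line is 1 library, so no value below carries a replicate error and no p-value was computed. Where lines are compared, the genotype and the spread between libraries cannot be told apart.

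Replication starts at origins, from which a pair of forks moves outwards until each meets a fork from another origin. A locus gives nascent-strand signal in the fractions whose cells were copying it during the pulse, so signal that lies at an origin cluster in early S phase is found beside it in later fractions as the forks travel. Early domains are joined to late ones by timing transition regions, in which replication time changes steadily along the DNA. Which DNA is copied early differs between cell types, and in vertebrate cells early replication goes with gene-rich, active chromatin.

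The profiles hold values in SD units (mean 0, SD 1 over the chromosome) at positions 1 kb apart. Of 196153 positions on chromosome 1, 193978 lie in the 16 stretches that the authors' weighted-average profile covers, and those were used. S1 was above 0 at the fewest positions. The share of positions above 0 was 33.4% for S1, 42.2% for S2, 43.1% for S3 and 43.1% for S4. In the clone these shares were 32.2%, 42.0%, 44.4% and 44.9%. At its highest place in Wt, S1 reached 6.77 SD units, S2 7.08, S3 19.4 and S4 6.37. The highest S3 value lay in the last 200 kb of the chromosome, where values ran from -4.90 to 19.4 in S3 and from -4.90 to -0.219 in S1. The profiles are smooth along the DNA. The correlation of a profile with itself came down to 0.50 at a distance of 212 kb in S1, 182 kb in S2, 146 kb in S3 and 205 kb in S4, so neighbouring windows are not independent. The profiles give no read counts, so their depth is unknown. Fewer cells replicating a locus and less nascent DNA per cell cannot be told apart in them.

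On chromosome 1 neighbouring fractions were alike and fractions further apart were opposed. Across 3882 windows of 50 kb the Pearson r was 0.407 between S1 and S2, 0.485 between S2 and S3, and 0.30 between S3 and S4. Skipping a fraction turned the sign, with -0.254 between S1 and S3 and -0.424 between S2 and S4. The ends of S phase were the most opposed, with -0.622 between S1 and S4. Spearman's rho gave the same order of distance, at 0.581, 0.592 and 0.313 for the successive steps, -0.105 and -0.445 for the pairs that skip a fraction, and -0.754 for S1 and S4. These coefficients are across windows of the same libraries and carry no test.

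The clone's libraries gave nearly the same picture. There r was 0.481, 0.464 and 0.296 for the 3 steps, -0.223 and -0.485 for the pairs that skip a fraction, and -0.618 for S1 and S4. The step from S1 to S2 differed most between lines, at 0.407 in Wt and 0.481 in the clone. Against this, the same fraction in both lines, outside the target region of the modification, had an r of 0.959 for S1, 0.963 for S2, 0.954 for S3 and 0.932 for S4. A step in S phase thus separated profiles far more than a change of line and library did.

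**Figure D1:**
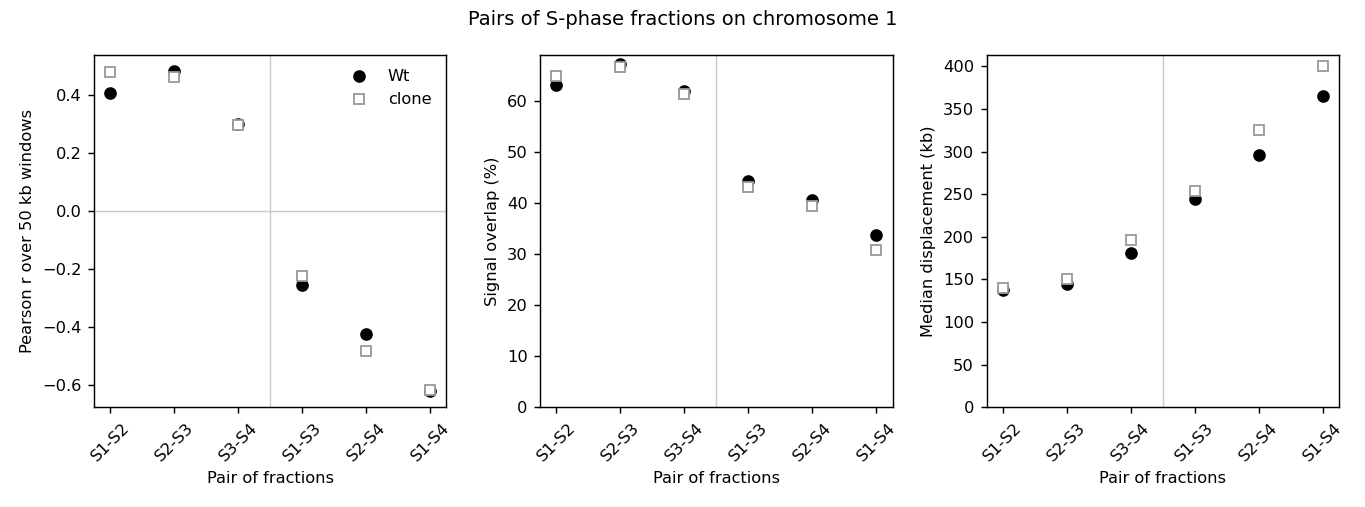
Pearson r, overlap and displacement for each of the 6 pairs of fractions on chromosome 1, with filled circles for Wt and open squares for the clone. Shown are r across 50 kb windows, signal overlap in percent and median displacement in kb within 2 Mb tiles. Successive fractions stand to the left of the grey line, with Wt r values of 0.30 to 0.485, and the 3 other pairs stand to its right, with Wt r values of -0.622 to -0.254.

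The same order held in most parts of the chromosome, although S1 and S2 did not relate to each other in the same way everywhere. In 10 of 14 stretches with at least 20 windows, each of the 3 successive pairs had a higher r than each other pair, and in 11 of the 14 S1 and S4 had the lowest. For S1 and S2, r ran from -0.393 in the stretch at 75361001 to 78180001 to 0.826 in that at 183030001 to 187258001. In the first of these the step from S3 to S4 was the closest, with an r of 0.825, and in the second it was the most distant of the 3 steps, with -0.0812. The step from S2 to S3 was positive in each of the 14 stretches, from 0.284 to 0.840. It had the highest r of all pairs in 6 of them, S1 to S2 in 5 and S3 to S4 in 3. Coordinates here and below are galGal5, chromosome 1.

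Most signal of neighbouring fractions lay in the same windows, but their strongest windows mostly did not. For this comparison the 1st percentile of a fraction became its 0 and all fractions were scaled to the same total, and the overlap is the part of the total that both fractions place in the same windows. It was 63.0% between S1 and S2, 67.2% between S2 and S3, and 61.9% between S3 and S4. It was 44.3% between S1 and S3, 40.6% between S2 and S4, and 33.7% between S1 and S4. Between lines, the same fraction overlapped by 89.9% in S1 and by 91.8% to 92.2% in the other fractions. How large the overlap is depends on where the floor is set. With the floor at the lowest value of each fraction it was 90.6%, 91.0% and 92.0% for the 3 steps, and S3 to S4 then had the most.

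Of the 388 windows with the highest 10% of values in S1, 61 (15.7%) were also among the highest 388 in S2. From S2 to S3 the lists shared 83 windows (21.4%), and from S3 to S4 they shared 53 (13.7%). Fractions further apart shared almost none: 2 windows between S1 and S3, 5 between S2 and S4 and 1 between S1 and S4. Unrelated lists of this size would share 10% of their windows. The 3 steps lay above that here, but with windows of 100 kb S3 to S4 fell below it, at 8.76%. The pairs further apart lay far below it. The windows just inside and just outside these lists were close in value, at 1.53 and 1.53 SD units in S1, 1.38 and 1.38 in S2, 1.28 and 1.28 in S3, and 1.43 and 1.43 in S4. The same fraction in both lines shared from 70.4% of its highest windows in S4 to 84.7% in S1.

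Within a window, signal was spread over neighbouring fractions. The leading fraction, the one with the highest scaled signal, held a median of 49.7% of a window's summed signal (middle 50% of windows, 42.5% to 61.9%). The best pair of neighbouring fractions held a median of 78.3%. These shares use the signal above the floor at the 1st percentile and were not computed with another floor, on which overlap depended. Windows led by S1 or by S4 were the most concentrated, with a median share of 56.9% and 57.8% in their leading fraction, against 42.8% for windows led by S2 and 42.2% for those led by S3. In the clone these medians were 58.4%, 59.9%, 42.5% and 42.2%. S2 and S3 have a neighbour on each side, and S1 and S4 only on 1 side. Whether this bears on the shares was not tested.

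The fraction in second place was nearly always a neighbour where S2 or S3 led. It was S1 in 299 and S3 in 385 of 689 windows led by S2, so that 99.3% had a neighbour in second place. It was S2 in 370 and S4 in 310 of 686 windows led by S3 (99.1%). At the ends of S phase this was less so. There a neighbour lies on a single side only, so the shares for S1 and S4 cannot be compared directly with those for S2 and S3. S2 came second in 716 of 870 windows led by S1 (82.3%), and S4 in 133. S3 came second in 1125 of 1637 windows led by S4 (68.7%), and S1 in 463. Windows led by S4 had little signal in all, with a median summed signal of 2.53 in units of a fraction's mean. It was 4.42, 5.09 and 4.88 in windows led by S1, S2 and S3. Whether low signal bears on these second places, or on the shares of the leading fraction above, was not tested. In the clone the neighbour came second in 90.3% of windows led by S1 and 73.2% of those led by S4.

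From S1 to S2 more windows rose at least 2-fold than fell. Of 3328 windows with enough signal in either fraction (at least 0.25 of the mean), 1096 were at least 2-fold higher in S2 than in S1 (32.9%) and 873 at least 2-fold lower (26.2%). In the clone the percentages were 35.7% and 21%. All fractions were scaled to the same mean. More gains than losses, here and at the later steps, thus do not mean that signal rose on balance. Gains and losses named here and for the later steps were chosen by their Wt difference, so its direction is given by the choice. The largest gain in deposited value over 100 kb, away from gaps, lay at 15400001 to 15500000, where the values were -0.00388 for S1, 3.49 for S2, 1.26 for S3 and -1.03 for S4. The next gain lay at 154300001 to 154400000, with 1.47 for S1, 4.77 for S2, 1.96 for S3 and -0.590 for S4. Both windows were thus highest in S2, above the chromosome mean in S3 and below it in S4. In the clone S2 was above S1 in both as well, with 0.235 in S1 and 2.81 in S2 in the first window, and 1.97 and 4.58 in the second.

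The largest losses from S1 to S2 lay where S1 stood far above the other fractions. At 68000001 to 68100000 the values were 3.46 for S1, -0.541 for S2, -1.03 for S3 and -1.06 for S4. At 129200001 to 129300000 they were 3.33, -0.251, -0.909 and -1.06. S2 was thus below the chromosome mean at both in Wt. The clone's libraries, which took no part in the choice, had 3.42 and 3.41 for S1 and -0.258 and 0.0552 for S2.

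The most prominent S1 peaks show this step locus by locus. They were chosen by S1 values, so a high S1 at their centres is given by the choice. A peak's prominence is its height above the higher of the valleys that separate it from taller ground. The most prominent S1 peak lay at 155037001, with values of 6.77 for S1, 3.47 for S2, -0.166 for S3 and -0.906 for S4, and was 326 kb wide at 50% of its prominence. On its sides S2 had peaks of 4.92 at -126 kb and 5.09 at 209 kb, where S1 stood at 2.84 and 2.75. S3 followed further out, with peaks of 3.94 at -286 kb and 3.62 at 268 kb, and S4 had peaks of 1.61 at -289 kb and 2.17 at 509 kb. At 268 kb S2 was still above S3, at 4.06. Another S2 peak, of 4.67, lay beyond the upstream S3 peak, at -510 kb. A narrow S2 peak of 3.82, only 20.1 kb wide, also lay 7 kb from the S1 centre.

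The S1 peak next in prominence lay at 98210001, with 4.46 for S1, 1.22 for S2, -0.558 for S3 and -1.13 for S4. S2 peaks of 4.12 and 4.15 lay at -289 kb and 103 kb. The S3 peak of 2.93 at -447 kb lay beyond the first of these, and the weak S3 peak of 0.432 at 139 kb beyond the second. At 139 kb S3 stood below both S1, at 0.548, and S2, at 3.87. A weaker S1 peak of 2.56 at -185 kb lay between the main S1 peak and the upstream S2 peak. Downstream, further S1 peaks of 2.18 at 288 kb and 2.58 at 488 kb followed. The S2 peak at 103 kb and the S3 peak at 139 kb thus lay between S1 peaks. The third S1 peak, at 92041001, was part of a wider group of S1 peaks that ran from -333 kb to 317 kb. Its values were 4.39 for S1, 0.113 for S2, -0.999 for S3 and -1.24 for S4. Downstream of this group came an S2 peak of 3.82 at 421 kb and then an S3 peak of 3.27 at 566 kb. Upstream, an S2 peak of 2.78 at -568 kb and a weak S3 peak of 0.159 at -573 kb lay almost at the same place. An S2 peak of 1.45 also lay inside the group of S1 peaks, at 85 kb. All 3 peaks were also high in S1 of the clone, with 8.39, 2.93 and 4.31.

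**Figure D2:**
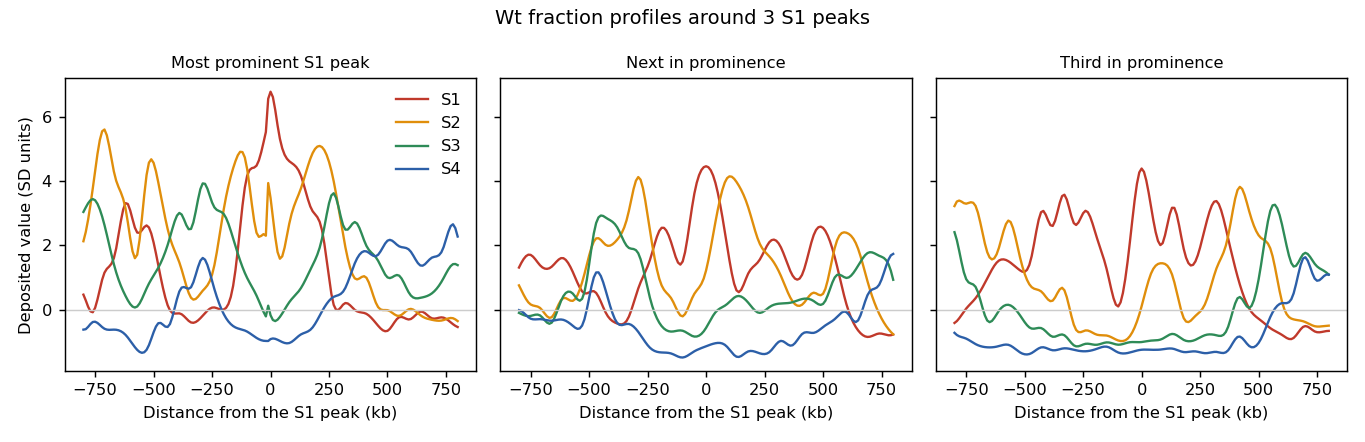
Deposited values in SD units of the 4 Wt fractions, as lines coloured by fraction, against the distance in kb from the 3 most prominent S1 peaks. On the left S2 has peaks of 4.92 and 5.09 beside the S1 peak, with S3 peaks further out. Upstream of these S2 is high again, with 5.60 at -710 kb. On the right S2 peaks at 421 kb and S3 at 566 kb, beyond a group of S1 peaks.

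From S2 to S3, Wt had the highest r and overlap of the 3 steps over chromosome 1 as a whole, but not the smallest displacement (given below). The order of the steps by r varied between stretches in Wt, and in the clone r was higher from S1 to S2. Of 3361 windows tested, 1140 were at least 2-fold higher in S3 (33.9%) and 805 at least 2-fold lower (24.0%). In the clone the percentages were 34.6% and 24.8%, and in all 59.4% of windows differed at least 2-fold, against 56.7% from S1 to S2. The largest gains lay at 162500001 to 162600000, with 0.0186 in S2 and 2.85 in S3, and at 154700001 to 154800000, with 0.669 and 3.44. S1 was below the chromosome mean at both, at -0.538 and -0.161, but the second value lay above the S1 median of -0.453. S4 was 2.45 in the first, and 1.21 in the second. The largest loss of this step, at 195400001 to 195500000, had 0.781 in S2 and -4.01 in S3, with 0.649 in S1 and 0.915 in S4. It lay in the last stretch of the chromosome, where extreme values occur, and its S3 value was as low in the clone, at -4.67, where S4 was -4.27. The next loss, at 98300001 to 98400000, was the downstream flank of the S1 peak described above, with 0.971 for S1, 3.77 for S2, 0.328 for S3 and -1.35 for S4.

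The most prominent S2 peak away from gaps lay in the same last stretch, at 195323001, where S1, S2 and S4 were high together (2.93, 7.08 and 5.49) and S3 was -0.171. It was 65.6 kb wide, and each other fraction had a peak within 5 kb of it. The next, at 154324001, had 1.10 for S1, 5.61 for S2, 2.72 for S3 and -0.573 for S4, with the nearest S1 peak 97 kb downstream and the nearest S3 peak 47 kb upstream. The third, at 98313001, lay 103 kb downstream of an S1 peak and 36 kb upstream of an S3 peak.

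The step from S3 to S4 had the most windows that differed at least 2-fold, 66.1% against 59.2% from S1 to S2 and 57.9% from S2 to S3. Of 3675 windows tested, 1277 were at least 2-fold higher in S4 (34.7%) and 1152 at least 2-fold lower (31.3%). In the clone the percentages were 34.9% and 33.4%. The largest gain from S3 to S4 was again the window at 195400001 to 195500000, with -4.01 and 0.915, where the clone's S4 was -4.27, so this gain was not seen there. The next, at 114300001 to 114400000, had -0.795 for S1, -0.977 for S2, -0.356 for S3 and 2.69 for S4, and 3.63 in the clone's S4. The largest losses lay at 162400001 to 162500000, with 4.67 in S3 and 1.03 in S4, and at 154200001 to 154300000, with 3.13 and -0.421. Both were high in S2 as well, at 2.74 and 2.85, and S3 was the highest fraction in both.

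The loss from S3 to S4 at 162400001 to 162500000 adjoined a window that had gained from S2 to S3. The S3 peak at 162443001 had values of -0.314 for S1, 3.25 for S2, 5.37 for S3 and 1.09 for S4, and its nearest S2 peak lay 27 kb upstream and its nearest S4 peak 124 kb downstream. The window beside it, at 162500001, was the one that gained most from S2 to S3 and was still at 2.45 in S4. Upstream lay one of the 3 most prominent S4 peaks, at 162042001, with -0.750 for S1, -6.61e-05 for S2, 2.08 for S3 and 3.95 for S4. The S4 peak at 83158001 had -0.426, -0.299, 1.83 and 4.68 in the same order, with its nearest S3 peak 3 kb and its nearest S1 peak 564 kb away. In the clone it stood at 6.92 in S4. The first S3 peak by prominence, at 195064001, and the first S4 peak, at 195326001, both lay in the last stretch and were 58.2 kb and 55.0 kb wide.

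Peak numbers and spacings were close among the fractions, and the width depended on which peaks were counted. With a prominence of at least 0.5 SD units there were 299 peaks for S1, 284 for S2, 321 for S3 and 327 for S4. Their median spacing was 458 kb, 476 kb, 461 kb and 467 kb. The median width at 50% of the prominence was 126 kb in S1, 178 kb in S2, 162 kb in S3 and 131 kb in S4, with wide spread, as the middle 50% of peaks ran from 76.0 to 235 kb in S1 and from 67.7 to 267 kb in S4. Among peaks with a prominence of at least 1 SD unit the order was another. There the median width was 196 kb in S1 (183 peaks), 204 kb in S2 (202 peaks), 215 kb in S3 (206 peaks) and 247 kb in S4 (182 peaks).

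In the clone the corresponding widths of the stronger peaks were 197, 196, 205 and 215 kb, so the greater width in S4 was smaller there, and the larger width of S2 over S1 was not seen. With the lower limit the clone had 134, 141, 140 and 125 kb. Peaks under 100 kb made up 38.5%, 28.5%, 31.5% and 39.8% of peaks in S1 to S4 of Wt, so that S1 and S4 were close, and 35.8%, 36.1%, 36.8% and 44.4% in the clone. Peaks wider than 400 kb made up 5.35%, 9.51%, 6.54% and 8.56% in Wt and 4.80%, 5.81%, 7.12% and 7.91% in the clone, with the fewest in S1 in both lines.

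**Figure D3:**
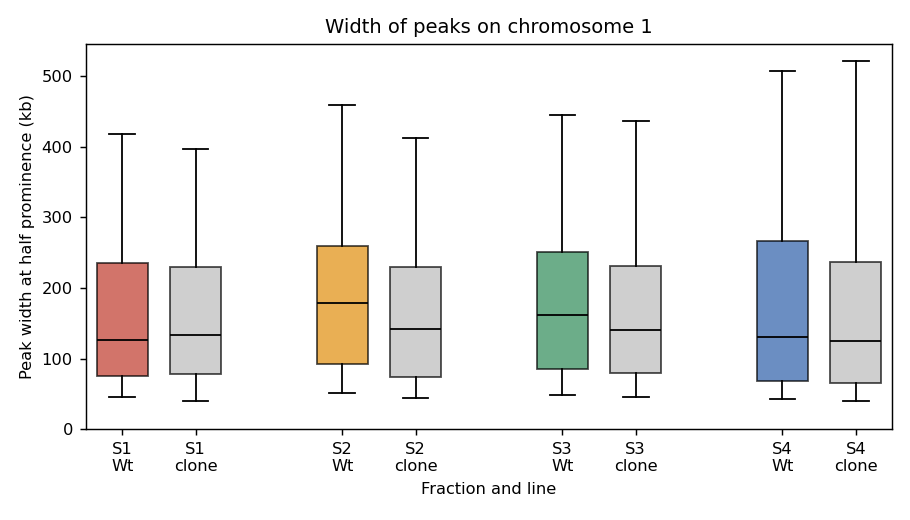
Width of peaks at 50% of their prominence in kb, for peaks of at least 0.5 SD units on chromosome 1, by fraction in Wt (coloured) and the clone (grey). Boxes span the middle 50% of peaks with a line at the median, and whiskers run from the 5th to the 95th percentile; the boxes of all fractions overlap, and Wt medians run from 126 kb in S1 to 178 kb in S2.

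Most peaks of a fraction had no peak of the next fraction within 25 kb. Peaks were sparse, at 1.46 per Mb in S2 to 1.69 per Mb in S4. Unrelated peaks would thus mostly lie apart as well, and the share they would give was not computed. From an S1 peak to the nearest S2 peak the median distance was 139 kb (middle 50% of peaks, 86.5 to 237 kb). It was 119 kb from S2 to S3 and 126 kb from S3 to S4. Over longer steps it grew to 230 kb from S1 to S3, 261 kb from S2 to S4 and 331 kb from S1 to S4. The other line gives a measure of how closely a peak's place is fixed. Outside the target region, the nearest peak of the same fraction in the clone lay at a median of 21 kb in S1, 16 kb in S2, 16 kb in S3 and 26 kb in S4. That peak lay within 25 kb for 53.5%, 59.8%, 60.8% and 49.8% of the Wt peaks in S1 to S4. By the medians, each step from fraction to fraction was larger than the displacement from line to line. The spreads overlap, as the middle 50% of peaks ran up to 93, 46, 59.25 and 98 kb between lines. For the 3 steps the middle 50% began at 86.5, 52 and 37.5 kb.

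Of 299 S1 peaks, 27 (9.03%) had an S2 peak within 25 kb. On both sides within 300 kb 79 had an S2 peak (26.4%), on a single side 129 (43.1%), and 64 had none (21.4%). The shares that unrelated peaks would give within 25 kb or 300 kb were not computed. These shares alone therefore do not show that peaks of the fractions lie apart or side by side. In the clone a larger part coincided, 58 of 271 (21.4%). From S2 to S3, 47 of 284 peaks (16.5%) coincided, and from S3 to S4, 68 of 321 (21.2%). Some coincidence is common to all pairs, since 21 of 296 S1 peaks (7.09%) also had an S4 peak within 25 kb, and 27 of 299 had an S3 peak, as many as had an S2 peak. Few peaks were found in all 4 fractions: 3 for S1, 5 for S2, 4 for S3 and 4 for S4 had a peak of each other fraction within 25 kb.

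Averaged over all peaks, the fractions formed a nested pattern around early peaks. Around the 299 S1 peaks the mean of S1 was 1.48 at the centre, 0.543 at 100 kb and 0.135 at 300 kb. S2 was 0.284 at the centre and highest at 126 kb, with 0.377. S3 was -0.328 at the centre and highest at 275 kb, with 0.191. S4 was -0.604 at the centre and came up to 0.00292 at 568 kb. The profile was nearly symmetric, with S2 at 0.359 on the upstream side and 0.356 on the downstream side at 150 kb. In the clone S3 was highest at 287 kb and S4 at 526 kb. There S2 was highest at the centre itself, at 0.604, then 0.341 at 50 kb and 0.498 at 150 kb. In Wt S2 was 0.164 at 50 kb and 0.358 at 150 kb. Mean S2 was thus lower at 50 kb than at 150 kb in both lines. A centre below the flanks at 150 kb was seen in the mean of Wt and not in that of the clone. By single peaks the lower centre of S2 was weak in Wt. At 165 of 294 S1 peaks (56.1%) S2 was higher on the flanks at 150 kb than at the centre, against 125 of 266 (47.0%) in the clone. For S3 the flanks were higher at 206 of 294 peaks in Wt (70.1%) and 195 of 266 in the clone (73.3%).

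Around S2 peaks the neighbouring fractions lay on different sides of the pattern. S3 was highest at the centre of S2 peaks, at 0.502, and S1 was highest at 134 kb, at 0.495, although it changed little between the centre (0.458) and 150 kb (0.469). In the clone S1 was highest at the centre of S2 peaks, at 0.512. Around S3 peaks S2 and S4 were both highest at the centre, at 0.574 and 0.455, while S1 was -0.317 there and highest at 259 kb, at 0.233. Around S4 peaks S3 was 0.335 at the centre, S2 was -0.342 and S1 was -0.473. All these mean profiles have a narrow rise at the centre, also in fractions far apart. In S4 around S2 peaks, for example, the mean was -0.491 at the centre and -0.598 at 50 kb. What gives this narrow rise was not tested.

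**Figure D4:**
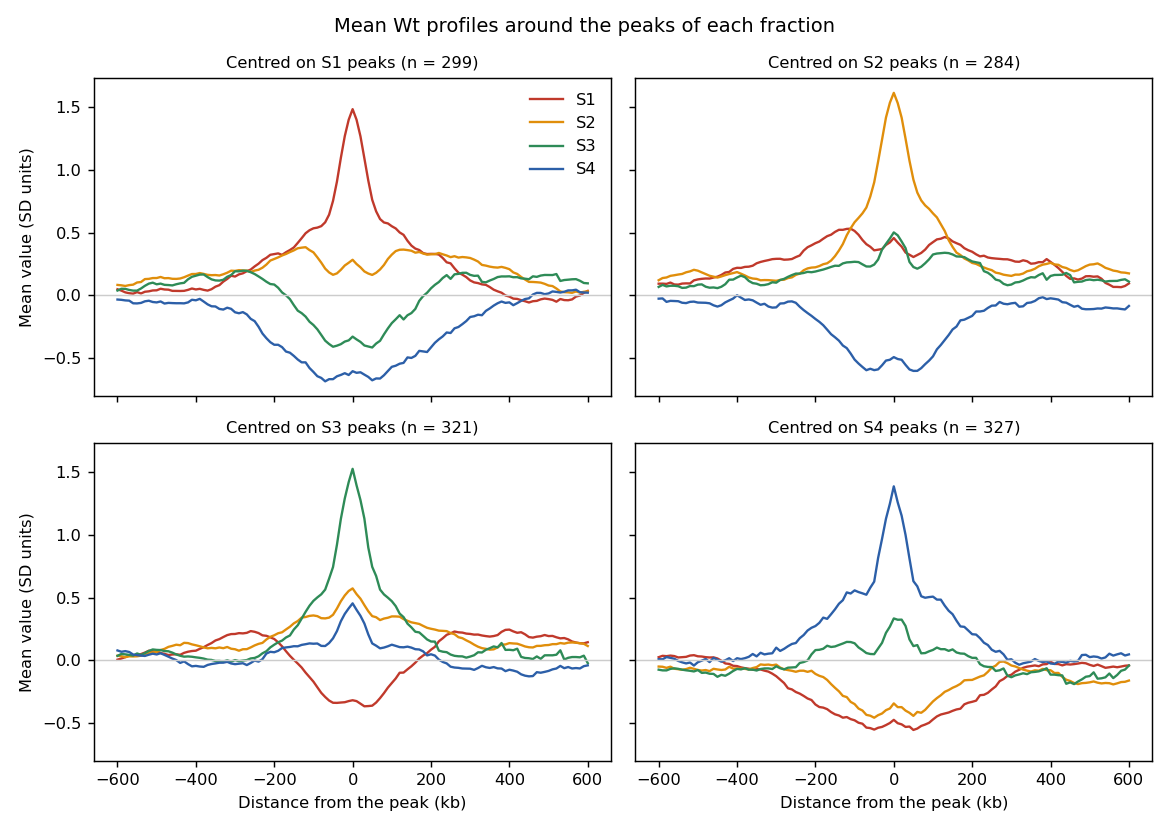
Mean deposited value in SD units of the 4 Wt fractions against the distance in kb from peaks of S1, S2, S3 and S4, with the number of peaks above each panel. Around S1 peaks the maxima move outwards from S1 at 0 kb to S2 at 126 kb and S3 at 275 kb, with S4 lowest near the centre.

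Shifting whole profiles against each other gave a distance for S1 and S3, but mostly none for successive fractions. With the later fraction moved along the DNA, averaged over both directions, S1 and S3 went from an r of -0.246 at no shift to a highest r of 0.175 at 330 kb, and in the clone from -0.214 to 0.193 at 360 kb. S1 and S2 were flat up to 200 kb, with 0.403 at no shift, 0.417 at 130 kb and 0.407 at 200 kb. In the clone their highest r was at no shift. S2 and S3, and S3 and S4, had their highest r at no shift in both lines and then declined, to 0.301 and 0.113 at 200 kb in Wt. S1 and S4 climbed from -0.606 to about 0, with 0.00976 at 900 kb.

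The distance by which signal has to be moved to turn one fraction into the next was measured within tiles of 2 Mb, each scaled to equal signal (the earth mover's distance). Over 90 tiles its median was 138 kb from S1 to S2, 145 kb from S2 to S3 and 180 kb from S3 to S4. The middle 50% of tiles ran from 106 to 222 kb for the first step, from 96.0 to 214 kb for the second and from 115 to 309 kb for the third, so the steps overlap widely. From S1 to S3 it was 244 kb, from S2 to S4 297 kb and from S1 to S4 365 kb. In the clone the 3 steps measured 140, 151 and 196 kb. The size depends on the tile, since signal cannot be moved out of it, and was 96.0, 75.8 and 89.3 kb in tiles of 1 Mb and 263, 241 and 430 kb in tiles of 4 Mb. The step from S3 to S4 was therefore the largest with 2 Mb and 4 Mb tiles but not with 1 Mb tiles.

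Along the DNA the leading fraction changed mostly by a single step. In windows of 20 kb there were 777 boundaries between runs of different leading fractions, and 649 of them (83.5%) joined successive fractions. There were 240 boundaries between S1 and S2, 222 between S2 and S3 and 187 between S3 and S4. Only 4 joined S1 and S3 and 9 joined S2 and S4. The numbers were balanced between directions, with 323 towards the later and 326 towards the earlier fraction, read along the chromosome.

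The exception was the boundary between S1 and S4, which occurred 115 times (14.8%). It lay in DNA with little signal. The median summed signal of the windows at these boundaries was at the 9.98th percentile of the chromosome, against the 60.8th to 75.4th percentile at boundaries between successive fractions. In scaled units, where the mean of a fraction is 1, the medians there were 0.613 for S1, 0.187 for S2, 0.172 for S3 and 0.613 for S4. In the clone 64 of 761 boundaries (8.41%) were of this kind. Without the 10% of windows with the lowest summed signal, a setting chosen after seeing the data, 47 of 704 were left in Wt (6.68%), and successive fractions made up 91.8% of boundaries. Many boundaries between S1 and S4 lie in such windows, so the cut itself takes them out. The change in these shares is therefore given by the choice. S1 runs with S4 on both sides numbered 55 of 183 and had a median length of 60 kb, while S1 runs with S2 on both sides numbered 113 and had a median of 280 kb.

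Most runs led by S2 or S3 lay between an earlier and a later run. Of 237 runs led by S2, 164 (69.2%) lay between an S1 and an S3 run, with a median length of 120 kb. Another 36 lay between S1 runs, and 27 between S3 runs. Of 209 runs led by S3, 137 (65.6%) lay between S2 and S4, with a median length of 120 kb. Another 41 lay between S2 runs, at a median of 220 kb, and 23 between S4 runs, at a median of 40 kb. Runs led by S4 were the longest, with a maximum of 3180 kb and a total of 81480 kb, and 72 of 164 had S3 on both sides, at a median of 520 kb. The totals for S1, S2 and S3 were 43660, 34360 and 34540 kb. As each fraction is scaled to the same mean, these totals rank places and do not measure how much DNA each fraction holds.

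A complete passage through S phase, with runs led by S1, S2, S3 and S4 in this order, was found 105 times, 54 times with the late side downstream and 51 times with it upstream. The S2 part had a median length of 100 kb (middle 50%, 80 to 140 kb) and the S3 part 120 kb (100 to 160 kb), on a grid of 20 kb. Together they measured a median of 240 kb, from 80 to 760 kb. The S3 part was the longer in 53 transitions, the S2 part in 31, and they were equal in 21. In the clone 107 such transitions had medians of 100 kb and 140 kb, with the S3 part longer in 64 and the S2 part in 29. With windows of 50 kb, or with unscaled values, both parts had the same median in Wt, at 100 kb or 120 kb. Windows of 10 kb gave 110 kb for S2 and 120 kb for S3. The difference between the medians in Wt is thus at the size of the grid. In the clone the medians lay further apart than the grid of 20 kb.

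Of the 105 Wt transitions, 86 outside the target region were found in the clone with both outer edges within 100 kb. In these the length of the S2 part differed between lines by a median of 20 kb, which is 1 window, and that of the S3 part by 20 kb. The length was the same within 1 window in 65 of 86 for S2 and 64 of 86 for S3. The greatest difference was 100 kb for both parts. As the 86 were chosen by outer edges that lay close, the choice favours like lengths. The other Wt transitions are not covered.

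Along these transitions the signal passed from each fraction to the next. At 100 kb inside the S1 run the median values were 1.49 for S1, 0.283 for S2, -0.634 for S3 and -0.973 for S4. In the middle of the S2 part they were 0.159, 1.36, 0.398 and -0.689, and in the middle of the S3 part -0.591, 0.222, 1.33 and 0.375. At 100 kb inside the S4 run they were -0.693, -0.742, 0.151 and 1.58. In Wt these places were chosen by the leading fraction, so the order of the values is given by the choice. The clone's libraries, which took no part in it, had the same leading fraction at the same places, with 1.57 for S1, 1.25 for S2, 1.24 for S3 and 1.40 for S4. The fraction 2 steps away was already below or near the chromosome mean at each point, with S3 at -0.634 inside S1 and S2 at -0.742 inside S4.

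**Figure D5:**
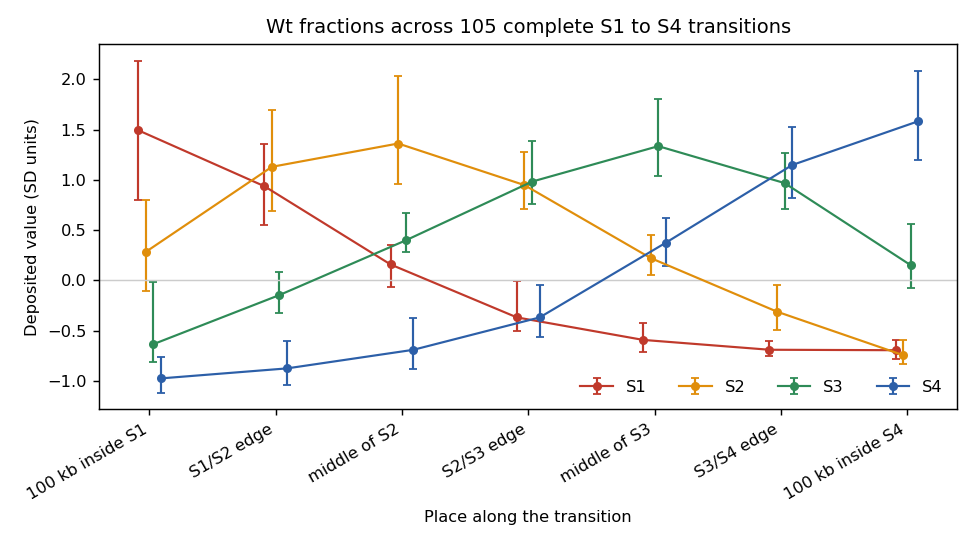
Deposited values in SD units of the 4 Wt fractions at 7 places along 105 complete S1 to S4 transitions, from 100 kb inside the S1 run to 100 kb inside the S4 run; points are medians over transitions and bars span the middle 50% of transitions. S2 and S3 are highest in the middle of their own parts, at 1.36 and 1.33, and the curves of successive fractions cross at the edges between their runs.

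Single transitions differed in length. The longest, at 176060001 to 176820000 with the late side downstream, had an S2 part of 360 kb and an S3 part of 400 kb, between an S1 run of 300 kb and an S4 run of 340 kb. The next, at 103860001 to 104580000, had an S2 part of 100 kb and an S3 part of 620 kb, with the late side upstream. The shortest, at 10720001 to 10800000, measured 20 kb and 60 kb, and that at 69600001 to 69700000 measured 20 kb and 80 kb. Another, at 192820001 to 192920000, was as short as the latter, with 60 kb and 40 kb. The means over the shortest were -0.143 for S1, 0.314 for S2, 0.480 for S3 and 0.313 for S4. Over the longest they were -0.210, 0.860, 0.708 and -0.519.

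The region that was modified in the clone, at 71981290 to 73532377, had mean values of 0.152, 0.558, 0.422 and -0.419 in S1 to S4 of Wt. It held S3 peaks at 72044001 (1.56) and 72364001 (1.65), an S2 peak of 0.927 at 72637001, and S3 peaks of 1.91 at 72645001 and 2.06 at 72753001. Further downstream came an S2 peak of 1.52 at 72791001, S1 peaks of 1.72 at 73025001 and 2.65 at 73163001, and an S2 peak of 2.05 at 73357001. S4 had peaks of 0.541 at 72321001 and 0.746 at 72693001, among the S3 peaks, and the second was 501 kb wide. Peaks of S2, S3 and S4 were thus interspersed upstream of the S1 peaks. At position 72548589, which the labels give for the reporter of the Hi-C clones, Wt had -0.572 for S1, 0.299 for S2, 0.875 for S3 and -0.000734 for S4, and the positions of their modules, 72536060 and 72565520, had S3 values of 0.938 and 0.742. S3 was the highest fraction at all 3 positions, and S2 was the next.

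On chromosome 14 of Wt, a smaller chromosome, neither the sizes of the steps nor the order of the pairs was the same. Over 301 windows of 50 kb, r was -0.236 from S1 to S2, 0.497 from S2 to S3 and 0.525 from S3 to S4, and S1 was opposed to S3 and S4 alike, at -0.731 and -0.701. Spearman's rho was -0.723 and -0.734 for these, so which pair is the most opposed depends on the coefficient. S1 and S2 were further apart in r than S2 and S4, which skip a fraction and had -0.141. Displacement over 7 tiles was 326 kb for S1 to S2 and 230 kb for S2 to S4, with overlaps of 48.8% and 48.5%. Windows that differed at least 2-fold made up 77.1%, 64.4% and 47.5% for the 3 steps, so S3 to S4 had the fewest there. None of the 30 highest windows in S1 was among the 30 highest in S2. All 42 boundaries between leading fractions joined successive fractions, and 6 complete transitions had a median S2 part and S3 part of 120 kb each, as long as on chromosome 1 within 1 window. A boundary between S1 and S4 was not found there. Even so, S4 came second in 66 of 146 windows led by S1 on chromosome 14. S2 came second in 74 of them (50.7%), against 82.3% on chromosome 1. No test of these differences was possible with 1 library per fraction.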

How the data were processed

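Reads were aligned with Bowtie2 to galGal5, per the submitters' processing notes; for its version, for filters and for smoothing, the sources used here give nothing. Nascent strands went through whole-genome amplification before library construction, per the labels' protocols, and its effect on the signal was not tested. Each fraction profile deposited by the authors is a score per 1 kb position, normalized per the file headers, and was found to have mean 0 and SD 1 over the chromosome. The authors' weighted-average score for Wt was used only for its positions, which leave 2175 positions of the fraction profiles in gaps or at the ends.

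Computed here, with Python 3.11.15, numpy 2.4.6, pandas 2.3.3 and scipy 1.17.1: means in windows holding at least 50% of their positions; scaled signal (the 1st percentile as 0, lower values to 0, equal means); peaks after a running mean over 11 positions, within stretches; leading fractions in windows of 20 kb. Fold comparisons used windows in which either fraction reached 0.25 of its mean. On chromosome 14 the last 546 of 15546 positions, with values up to 64.8 against at most 0.0947 before them, were left out and the rest rescaled. Scripts were tested on simulated profiles. Regions were named by a rule: 3 peaks per fraction, the 2 largest gains and losses per step, the 2 longest and shortest transitions, at least 500 kb from gaps and 1000 kb apart, and the design's positions. Regions within the last stretch follow this rule. The measures and members were chosen with earlier results of these data known. No genes were placed, since no galGal5 annotation was used here.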

Additional observations from a re-analysis of the deposited data

How the results depend on the processing

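Each of 30 results was computed again under a few alternative settings, which gave 151 alternative values. Of these values, 115 stayed within the limits set for them and 36 went past them. Among the 151 values, 37 came from settings added after the data had been seen. The limits were an exact (Clopper-Pearson) 95% interval for percentages of windows or boundaries, which covers counting error only, the SD over 14 stretches for r and overlap, and 1.5-fold for lengths and counts. The limits for r are wide (0.0272 to 0.787 for S1 to S2), so staying within them shows little; the alternatives themselves gave 0.386 to 0.425, 0.456 to 0.495 and 0.283 to 0.305 for the 3 steps. Numbers and lengths of complete transitions stayed within 1.5-fold. Under each setting run on chromosome 1 the 3 successive pairs stayed closer than the 3 other pairs in r, shared windows, overlap and displacement. The shared top windows of S1 to S2, S2 to S3 and S3 to S4 were 33.0%, 30.5% and 24.4% with the top 20%, and for S1 to S2 and S3 to S4 9.28% and 6.70% with the top 5%; S3 to S4 was 8.76% with windows of 100 kb. S1 to S2 shared the most with the top 20%, and S2 to S3 otherwise. Unrelated lists would share 20% with the top 20% and 5% with the top 5%, so these percentages do not have the same base. With the floor at the lowest value, overlap was 90.6%, 91.0% and 92.0% and displacement 40.8, 41.4 and 38.8 kb. Displacement was 75.8 kb (S2 to S3) and 89.3 kb (S3 to S4) with tiles of 1 Mb, and 263, 241 and 430 kb with 4 Mb. Windows changing 2-fold were 59.2%, 57.9% and 66.1%, and 64.3%, 62.6% and 72.1% with the floor at the 5th percentile; S1 to S2 was 57.01% with windows of 100 kb. Peaks numbered 517, 430, 493 and 580 in S1 to S4 with a prominence of 0.25, and 183, 206 and 182 in S1, S3 and S4 with 1. Widths were 115, 99.4 and 75.2 kb in S2, S3 and S4 with 0.25, and 196 and 247 kb in S1 and S4 with 1; the nearest peak from S3 to S4 was at 76 kb with 0.25. Boundaries between successive fractions were 79.8% with unscaled values and 91.8% without the windows of lowest signal. The cause was not tested for any of these. No paired analysis was possible because every fraction has a single library in each line. Without counts, no limit from depth can be given.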
